A study of Mus musculus with 16 samples.

Results

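The 8 genes described here encode CXC chemokines, small secreted proteins that steer leukocytes through G protein-coupled receptors. They are Cxcl1, Cxcl2, Cxcl3 and Ppbp, whose proteins attract neutrophils, together with Pf4, Cxcl14, Cxcl16 and Cxcl12. They were chosen by symbol, as the rows that the deposited tables pair with these names, and make up 8 of the 30819 genes listed. The transcripts were measured in macrophages and monocytes sorted from MN/MCA1 tumours, a transplantable mouse fibrosarcoma, of C57BL/6J mice. Tumours were taken 21 days after MN/MCA1 cells had been injected under the skin. The 4 groups were macrophages from C3-/- mice, macrophages from wild-type (WT) mice, monocytes from C3-/- mice and monocytes from WT mice. Each group had 4 libraries, and the titles give 1 mouse number per library, with mice 6, 7, 8 and 9 for C3-/- and mice 1, 2, 3 and 4 for WT. Each mouse gave both cell types. C3 is the central complement component, and its gene is disrupted in the germ line of the C3-/- mice, so that host cells of every kind carry the defect, while the injected tumour cells were the same line in both genotypes. Neither age nor sex of the mice was given. Macrophages had been gated as CD45+ CD11b+ cells with F4/80 and without Ly6C, monocytes as CD45+ CD11b+ cells with Ly6C and without F4/80, both after removal of Ly6G+ and CD11c+ cells. The tumours had been digested with collagenase at body temperature before sorting.

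Cxcl1, Cxcl2, Cxcl3 and Ppbp carry the glutamate-leucine-arginine (ELR) motif ahead of their first cysteines and act on Cxcr2, the receptor that draws neutrophils out of blood into tissue. In macrophages and monocytes, Cxcl1, Cxcl2 and Cxcl3 are transcribed within minutes to hours of inflammatory signals through NF-kB, and their messages are short-lived. Ppbp and Pf4 are the classic chemokines of platelet granules, and Pf4 lacks the ELR motif. Cxcl12, the ligand of Cxcr4, and Cxcl14 are made constitutively in many tissues, largely by stromal and epithelial cells, and are called homeostatic. Cxcl16 is made as a membrane-bound protein that also takes up oxidized lipoprotein. Its ectodomain, the ligand of Cxcr6, is shed by the protease Adam10.

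Of the 8 genes, 5 lie together on chromosome 5 of GRCm38 (GENCODE M21), all on the plus strand: Ppbp, Pf4, Cxcl3, Cxcl1 and Cxcl2, in that order. These genes span chr5:90768518-90770063 for Ppbp, chr5:90772435-90773383 for Pf4, chr5:90786103-90789600 for Cxcl3, chr5:90891241-90893115 for Cxcl1 and chr5:90903871-90905938 for Cxcl2. The others lie apart, Cxcl14 at chr13:56288643-56296551 and Cxcl16 at chr11:70453983-70459984, both on the minus strand, and Cxcl12 at chr6:117168535-117181367 on the plus strand. Upstream of the start of Cxcl1, Cxcl2 and Cxcl3, RefSeq promoters of GRCm38.p6 shared the run GGGAATTTCCC, of the kind that NF-kB dimers are known to bind. It is shown in capitals in the 130 bases before each RefSeq start, read 5′ to 3′ on the plus strand, beside the letters ATAAAA of a TATA-type box. The stretches lie at chr5:90891115-90891244 for Cxcl1, chr5:90903769-90903898 for Cxcl2 and chr5:90785971-90786100 for Cxcl3. The GENCODE genes of Cxcl1 and Cxcl2 begin at 90891241 and 90903871, inside the last bases of their stretches.
Cxcl1: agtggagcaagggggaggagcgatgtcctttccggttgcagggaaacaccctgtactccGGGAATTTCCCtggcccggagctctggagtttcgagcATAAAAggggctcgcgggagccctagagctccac
Cxcl2: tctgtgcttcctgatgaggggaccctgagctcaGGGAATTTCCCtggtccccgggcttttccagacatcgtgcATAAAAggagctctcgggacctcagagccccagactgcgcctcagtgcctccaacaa
Cxcl3: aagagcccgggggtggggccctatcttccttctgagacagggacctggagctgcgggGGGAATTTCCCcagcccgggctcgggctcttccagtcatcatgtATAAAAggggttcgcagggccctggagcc

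The run of 11 bases ended 61 bases upstream of the start in Cxcl1, 87 in Cxcl2 and 63 in Cxcl3. Searched on both strands in the 250 bases upstream of each start, it occurred in 14 of 32851 promoters of the table, or 0.0426%. The run was picked as the longest that Cxcl1, Cxcl2 and Cxcl3 share in these bases. Its presence in their 3 promoters, which are among the 14, was thus fixed in advance. Of the 7 members with a promoter there, no other held it. ATAAAA occurred in 17% of all promoters on either strand, and in those of Cxcl1, Cxcl2, Cxcl3, Ppbp and Pf4. These are matches of letters and no measurement of binding.

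Levels below are normalized reads, the reads recovered from the deposited values divided by the size factor of the library. Between 18686232 and 29026722 reads were recovered per library. Transcripts of the disrupted gene itself remained. C3 had 1234 ± 168 normalized reads in C3-/- macrophages and 4008 ± 858 in WT macrophages, and 4925 ± 288 in C3-/- monocytes and 15158 ± 718 in WT monocytes (SD, n = 4 each), with no overlap between genotypes in either cell type. The sorted cells carried the markers of their gates. All 10 monocyte markers tested were lower in macrophages than in monocytes in both genotypes, and 9 of 12 macrophage markers were higher in both. In bulk RNA of this kind, fewer cells of a type and less RNA per cell cannot be told apart. The tests below are limma fits across all genes that reached 10 on the linear scale in at least 4 libraries. Their log2 differences are on the deposited scale, which draws the libraries of a gene together, at high levels too. They are therefore often smaller than log2 ratios of normalized reads. For Cxcl16, WT macrophages minus WT monocytes, the difference was 0.88, where the mean normalized reads gave a log2 ratio of 1.23. A gene was called at an adjusted p under 0.05. The comparisons of genotypes and of cell types share libraries, so their results are not independent of each other.

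**Figure D1:**
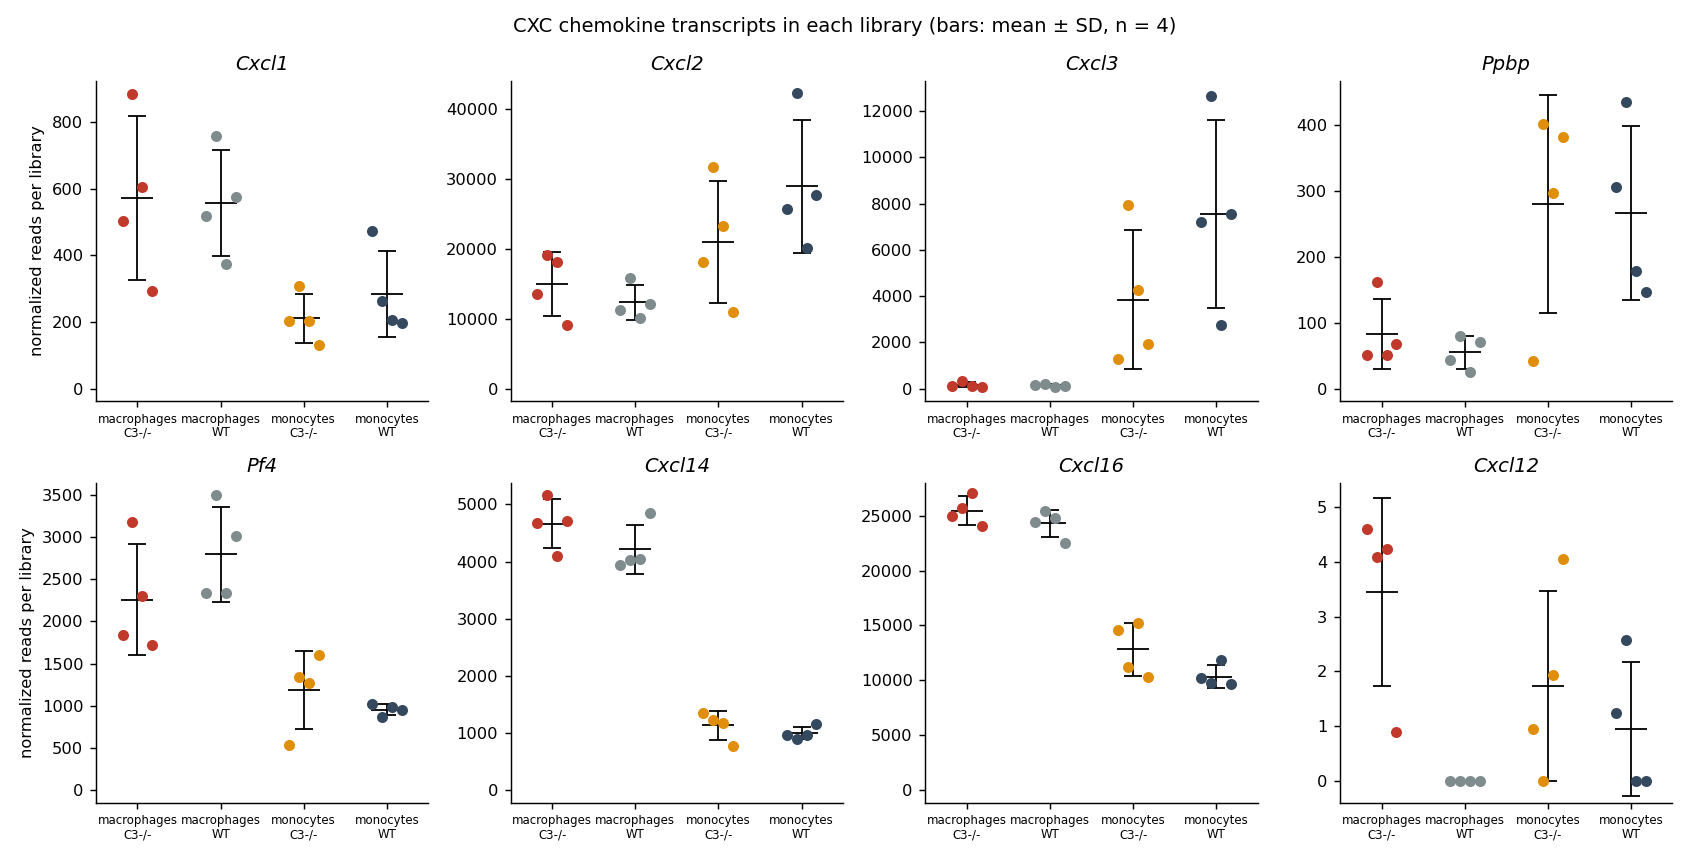
Normalized reads of the 8 CXC chemokine genes in each of the 16 libraries. Each panel has its own linear axis; points are libraries, bars the mean ± SD of 4 libraries. Cxcl3 stood between 80.7 and 342 in C3-/- macrophages and between 71.1 and 209 in WT macrophages, far under all monocyte libraries, while Cxcl14 and Cxcl16 were higher in every macrophage library than in any monocyte library.

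The clearest pattern was a split by cell type. Cxcl3 was the member that differed most between the sorted cells. In WT mice, all 7 members tested differed between macrophages and monocytes, where 63.4% of all genes tested did. Cxcl14, Pf4, Cxcl16 and Cxcl1 were higher in macrophages and Cxcl3, Ppbp and Cxcl2 lower. Over all genes, 31.7% were called higher in WT macrophages and 31.7% lower. In C3-/- mice, 4 of 7 were called, against 60.5% of all genes. Cxcl14, Cxcl16 and Cxcl1 were higher in C3-/- macrophages, where 31% of genes were, and Cxcl3 was lower, where 29.6% were. With most genes differing between the cell types, these counts are no result about the chemokines as a set, and the direction and size for each gene are given below. The libraries of both cell types did not overlap for 6 of 7 members in WT mice, against 57.6% of all genes tested, and for 4 of 7 in C3-/- mice, against 55.2%.

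None of the 7 members tested was called between the genotypes. In macrophages, 0 of 7 were called between C3-/- and WT, where 5.7% of all genes were. In monocytes, again 0 of 7 were called, against 3.32% of all genes. At an unadjusted p under 0.05, limma gave 0 of 7 in macrophages and 1 of 7 in monocytes, which was Cxcl16. None of the 7 had genotypes without overlap in either cell type, against 13.1% of all genes tested in macrophages and 11.1% in monocytes. The authors' deposited table had no adjusted p under 0.05 for these 7 genes and none at all for Cxcl12. The median difference over the 7 members, C3-/- minus WT, was 0.08 log2 units in macrophages and -0.12 in monocytes, beside 0.00 and -0.01 over all genes. With 4 mice a genotype and the spread of these genes, the 95% intervals reached -0.61 to 0.58 log2 units for Cxcl1 in macrophages and -2.17 to 0.41 for Cxcl3 in monocytes.

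**Figure D2:**
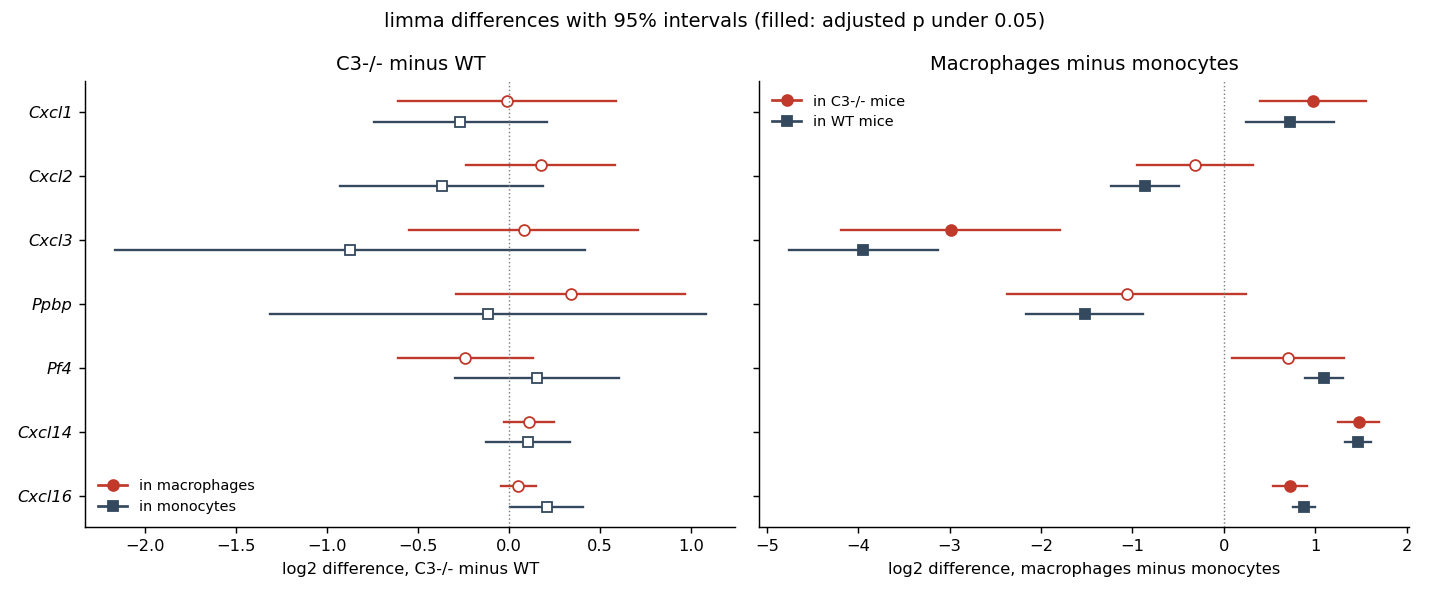
limma differences on the log2 scale for the 7 members tested, with 95% intervals. The left panel shows C3-/- minus WT in macrophages (red circles) and monocytes (blue squares), where all symbols are open; the right panel shows macrophages minus monocytes in C3-/- mice (red) and WT mice (blue), where filled symbols mark an adjusted p under 0.05 and Cxcl3 lies at -2.99 and -3.95.

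Cxcl2, the major neutrophil attractant of stimulated mouse macrophages, was the most abundant of the neutrophil-attracting ligands per length in every group. It ranked 107th of 20407 genes by normalized reads per kb of exon in C3-/- macrophages, 133rd in WT macrophages, 85th in C3-/- monocytes and 62nd in WT monocytes. The merged exons of Cxcl1, Cxcl2 and Cxcl3 cover the whole gene in 1 block, of 1875, 2068 and 3498 bases. Any introns are thus counted in these lengths, which would lower the values per kb. In C3-/- macrophages of mice 6, 7, 8 and 9 Cxcl2 had 13522, 19100, 18211 and 9118 normalized reads, and in WT macrophages of mice 1, 2, 3 and 4 it had 11204, 15893, 10081 and 12185. In monocytes it had 18088, 31780, 23262 and 11011 normalized reads in C3-/- mice and 25680, 42412, 20087 and 27777 in WT mice. Mouse 2 was the highest WT mouse in both cell types, mouse 7 the highest C3-/- mouse in both and mouse 9 the lowest. The log2 difference between C3-/- and WT was 0.17 ± 0.18 in macrophages (SE, limma adjusted p = 0.662) and -0.37 ± 0.24 in monocytes (adjusted p = 0.494). Their 95% intervals ran from -0.24 to 0.58 and from -0.93 to 0.19.

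Every mouse had less Cxcl2 in its macrophages than in its monocytes. In WT mice, macrophages and monocytes did not overlap and the macrophages were lower by 0.86 ± 0.16 log2 units (SE, limma adjusted p = 0.0016). Mean normalized reads were 12341 in WT macrophages and 28989 in WT monocytes, a ratio of 0.426. In C3-/- mice the means were 14988 in macrophages and 21035 in monocytes, and the difference of -0.32 ± 0.27 was not called when mice were ignored (adjusted p = 0.339). With the mouse as a block, the same difference was called in C3-/- mice (adjusted p = 0.0011). The block brought the members called there to 6 of 7, against 60.9% of all genes, and those in WT mice to 7 of 7, against 65.8%. Within C3-/- mice 6, 7, 8 and 9 it was -0.30, -0.54, -0.26 and -0.18 log2 units, and within WT mice 1, 2, 3 and 4 it was -0.85, -1.04, -0.70 and -0.85. The gap between the cell types was thus smaller in each C3-/- mouse than in any WT mouse. The test of this difference between genotypes gave 0.54 ± 0.33 log2 units (SE), which was not called without the block (limma adjusted p = 0.596) and was called with it (adjusted p = 0.00717). Over 21 alternatives the adjusted p ran from 0.00717 to 0.791. Without the block, 0 of 7 members and 81 of 13134 genes, or 0.617%, were called in this test. With the block, 1 of 7 members, Cxcl2, and 251 genes, or 1.91%, were called.

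**Figure D3:**
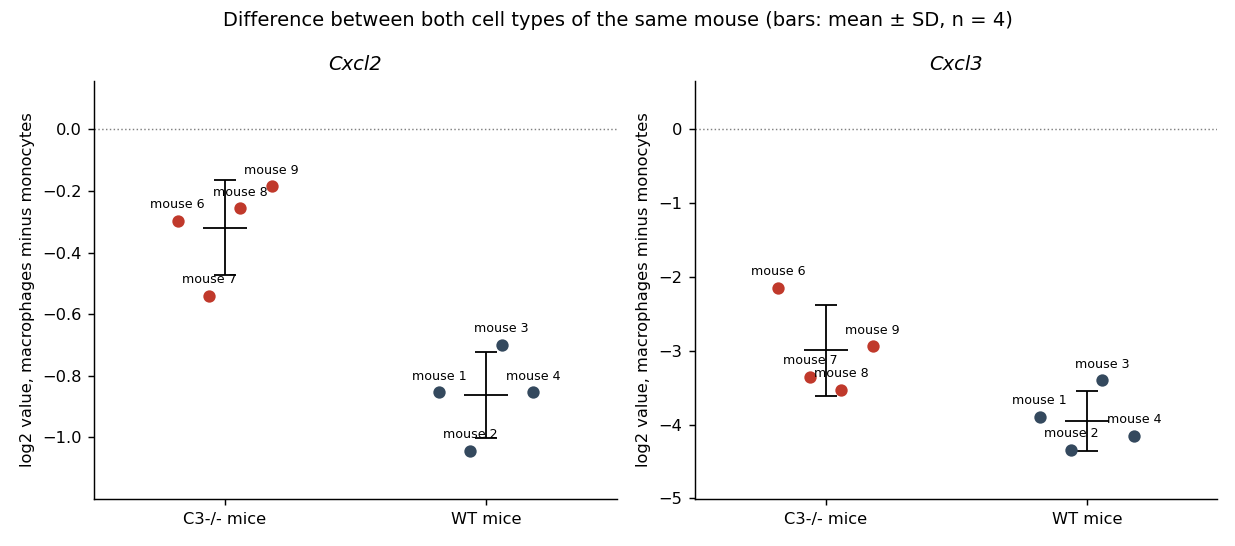
Log2 value in macrophages minus that in monocytes of the same mouse, for Cxcl2 and Cxcl3, with C3-/- mice left and WT mice right. Points are mice, bars the mean ± SD of 4 mice; for Cxcl2 the C3-/- mice lie between -0.54 and -0.18 and the WT mice between -1.04 and -0.70, while for Cxcl3 the ranges overlap.

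Cxcl3, the close relative of Cxcl2 on the same chromosome, was largely a transcript of monocytes. In macrophages it had 131, 342, 120 and 80.7 normalized reads in C3-/- mice 6, 7, 8 and 9 and 162, 209, 71.1 and 126 in WT mice 1, 2, 3 and 4. In monocytes it had 1289, 7933, 4250 and 1936 in C3-/- mice and 7203, 12672, 2729 and 7553 in WT mice. Every monocyte library lay above every macrophage library. The mean was 168.6 in C3-/- macrophages and 3852 in C3-/- monocytes, 22.9-fold higher in the monocytes, and 142 in WT macrophages and 7539 in WT monocytes, 53.1-fold higher in the monocytes. On the log2 scale of the deposited values, which draws values together, macrophages were lower by 2.99 ± 0.50 in C3-/- mice (SE, limma adjusted p = 0.00197). In WT mice they were lower by 3.95 ± 0.35 (limma adjusted p = 2.13e-05). Within single mice, monocytes had between 9.799 and 35.5 times as much as macrophages in C3-/- mice, and between 38.4 and 60.7 times in WT mice.

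Monocytes of C3-/- mice averaged 0.511 of the Cxcl3 level in WT monocytes, but the mice varied so widely that the difference of -0.88 ± 0.54 log2 units was not called (SE, limma adjusted p = 0.477). Its 95% interval ran from -2.17 to 0.41. The library of mouse 7 exceeded 3 of the 4 WT libraries, and that of WT mouse 3 lay under 2 of the 4 C3-/- libraries. In macrophages the difference was 0.08 ± 0.27 (adjusted p = 0.918), and it was negative without mouse 7 of the C3-/- group or without mouse 3 of the WT group. The difference between these genotype effects was 0.96 ± 0.64 and was not called (adjusted p = 0.644).

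Cxcl3 and Cxcl2 did not keep a fixed ratio. Per 100 reads of Cxcl2 there were 1.08 ± 0.50 reads of Cxcl3 in C3-/- macrophages and 1.13 ± 0.33 in WT macrophages, but 17.0 ± 7.37 in C3-/- monocytes and 24.7 ± 7.48 in WT monocytes (SD, n = 4 each). All monocyte libraries lay above all macrophage libraries, and exact permutation tests (two-sided) gave p = 0.0286 within each genotype, the smallest that 4 against 4 libraries allow, and 0.0858 after adjustment over 12 such tests. Between genotypes the exact permutation p was 0.771 in macrophages and 0.286 in monocytes. The transcripts of both genes share 126 stretches of 50 bases, 5.84% of those in Cxcl2 and 3.51% of those in Cxcl3, so a small part of their reads could be split or lost in counting. No other pair among the 4 neutrophil-attracting ligands shared such a stretch.

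Cxcl1, the mouse homologue of the growth-regulated oncogenes, took the other direction, being higher in macrophages. It had 503, 886, 606 and 294 normalized reads in macrophages of C3-/- mice 6, 7, 8 and 9 and 520, 760, 374 and 577 in those of WT mice 1, 2, 3 and 4. Monocytes had 204, 308, 204 and 130 in C3-/- mice and 473, 263, 205 and 197 in WT mice. In each of the 8 mice the macrophages had more, although macrophages of mouse 9 lay under monocytes of mouse 7, and macrophages of mouse 3 under monocytes of mouse 1. Macrophages were higher by 0.97 ± 0.26 log2 units in C3-/- mice (SE, limma adjusted p = 0.00987) and by 0.72 ± 0.21 in WT mice (adjusted p = 0.0151). C3-/- minus WT was -0.01 ± 0.26 in macrophages (adjusted p = 0.986). In monocytes it was -0.27 ± 0.21 (adjusted p = 0.573). Thus Cxcl1, Cxcl2 and Cxcl3 had cell-type differences of unlike sign and size. The part in them of the run of bases that these genes share was not tested.

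Ppbp, whose protein becomes the neutrophil attractant NAP-2 after cleavage, had few reads in macrophages and more in most monocyte libraries. Macrophages had 51.5, 161, 50.8 and 68.2 normalized reads in C3-/- mice 6, 7, 8 and 9 and 42.8, 79.7, 25.9 and 71.0 in WT mice 1, 2, 3 and 4. Monocytes had 41.3, 401, 297 and 382 in C3-/- mice and 306, 435, 178 and 146 in WT mice. The monocytes of mouse 6 lay far under all other monocyte libraries, at the level of macrophages. In WT mice, macrophages were lower than monocytes by 1.52 ± 0.28 log2 units without overlap (SE, limma adjusted p = 0.00114). In C3-/- mice the difference of -1.07 ± 0.55 was not called (adjusted p = 0.137). Without the monocytes of mouse 6 it was -1.59 and called (adjusted p = 0.000668). C3-/- minus WT was 0.34 ± 0.28 in macrophages (adjusted p = 0.57). In monocytes it was -0.12 ± 0.52 (adjusted p = 0.937). Without the monocytes of mouse 6, the monocyte value was 0.41 (adjusted p = 0.469).

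Together the 4 neutrophil-attracting ligands summed to 7677 ± 2402 normalized reads per kb in C3-/- macrophages and 6356 ± 1336 in WT macrophages, and to 11645 ± 5108 in C3-/- monocytes and 16571 ± 5840 in WT monocytes (SD, n = 4 each). Cxcl2 made up 94.5% of that sum in C3-/- macrophages, 94.0% in WT macrophages, 87.8% in C3-/- monocytes and 85.2% in WT monocytes. Cxcl3 made up 0.599% in C3-/- macrophages and 0.624% in WT macrophages, and 8.68% in C3-/- monocytes and 12.3% in WT monocytes. The remainder was Cxcl1, with 3.88% and 4.63% in C3-/- and WT macrophages and 1.01% and 0.982% in C3-/- and WT monocytes, and Ppbp, with 0.771% to 2.55% by group. These shares rest on lengths that cover the whole gene for Cxcl1, Cxcl2 and Cxcl3 but not for Ppbp, and are approximate. Between genotypes, exact permutation tests of the summed level gave a two-sided p of 0.457 in macrophages and 0.229 in monocytes. Between WT macrophages and WT monocytes the exact p was 0.0286, the smallest possible (0.0858 after adjustment over 12 tests), and between C3-/- macrophages and C3-/- monocytes the exact p was 0.257.

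**Figure D4:**
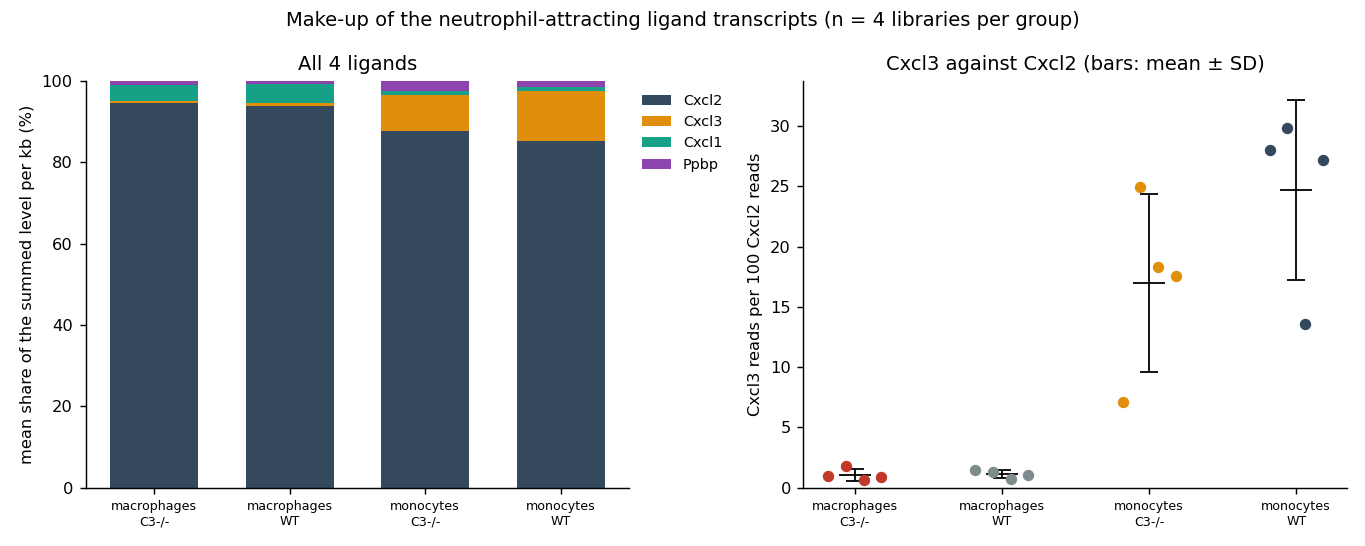
Left: mean share of Cxcl2, Cxcl3, Cxcl1 and Ppbp in their summed level per kb of exon, in percent, for each group of 4 libraries. Right: Cxcl3 reads per 100 Cxcl2 reads in each library, with mean ± SD, where macrophages lie between 0.657 and 1.79 and monocytes between 7.12 and 29.9.

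Pf4, platelet factor 4, was higher in macrophages than in monocytes of WT mice. Macrophages had 1836, 3175, 2297 and 1722 normalized reads in C3-/- mice 6, 7, 8 and 9 and 2341, 3494, 2339 and 3009 in WT mice 1, 2, 3 and 4. Monocytes had 536, 1344, 1274 and 1604 in C3-/- mice and 1019, 872, 986 and 945 in WT mice. Every macrophage library lay above every monocyte library of its genotype. Macrophages were higher by 1.09 ± 0.09 log2 units in WT mice (SE, limma adjusted p = 2.84e-06). In C3-/- mice the difference of 0.70 ± 0.26 just missed the threshold (adjusted p = 0.0504) and passed it with the mouse as a block (adjusted p = 0.0301). It also passed without the monocytes of mouse 6, at 0.47 (adjusted p = 0.028), and its adjusted p ran from 0.00692 to 0.107 over the alternatives. C3-/- minus WT was -0.24 ± 0.16 in macrophages (adjusted p = 0.469). In monocytes it was 0.15 ± 0.20 (adjusted p = 0.764). In monocytes it was called when mouse 6 was left out of the C3-/- group, at 0.38 (adjusted p = 0.0143).

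Of 12 platelet and megakaryocyte markers, 1, the integrin chain Itgb3, was abundant enough to be tested, and 6 could be measured at all. Their summed level ran from 32.8 to 58.5 normalized reads in C3-/- macrophages, from 16.8 to 52.3 in WT macrophages, from 59.2 to 177 in C3-/- monocytes and from 34.7 to 97.6 in WT monocytes. Itgb3 was the largest part of that sum in each group, with means of 25.5, 12.8, 80.9 and 40.1. Itga2b, the defining integrin of platelets, averaged 6.44, 4.10, 9.75 and 11.2 normalized reads in those groups. Gp1ba alone had higher means in macrophages, with 3.49, 5.43, 1.11 and 1.83. In the limma test of macrophages minus monocytes, Itgb3 was called lower in C3-/- mice, at -1.02 log2 units. In WT mice it was not called, at -0.92. The platelet sum was lower in every C3-/- macrophage library than in any C3-/- monocyte library, though only by 58.5 against 59.2 at the nearest. It overlapped in WT, while Pf4 was higher in macrophages and Ppbp higher in most monocytes. The monocytes of mouse 6, lowest for Ppbp and Pf4, also had the lowest platelet sum of their group, 59.2, and those of mouse 9 the highest, 177. Over the 16 libraries, deviations from the group means of this sum and of Ppbp had r = 0.05 and those of the sum and of Pf4 r = 0.13. The part of platelet RNA in either gene was not tested.

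Cxcl14, a homeostatic chemokine of epithelia and stroma, was higher in macrophages in both genotypes. It had 4668, 5159, 4105 and 4708 normalized reads in macrophages of C3-/- mice 6, 7, 8 and 9 and 3947, 4020, 4042 and 4856 in those of WT mice 1, 2, 3 and 4. Monocytes had 1354, 1222, 1181 and 781 in C3-/- mice and 971, 904, 973 and 1164 in WT mice. Cell types did not overlap in either genotype. Macrophages were higher by 1.47 ± 0.10 log2 units in C3-/- mice (SE, limma adjusted p = 3.82e-07) and by 1.47 ± 0.06 in WT mice (adjusted p = 8.26e-09), and the means differed 4.11-fold in C3-/- mice and 4.204-fold in WT mice. The difference between these effects was 0.00 with a 95% interval from -0.27 to 0.28. C3-/- minus WT was 0.11 ± 0.06 in macrophages (adjusted p = 0.375). In monocytes it was 0.10 ± 0.10 (adjusted p = 0.672).

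Markers of fibroblasts and sarcoma cells, which are among the known sources of Cxcl14, went the other way. Of 11 tested in WT mice, 9 were lower in macrophages than in monocytes, with Fap the 1 that was higher. Of 9 tested in C3-/- mice, 7 were lower in macrophages. Their summed level was 968 ± 570 normalized reads in C3-/- macrophages and 2335 ± 1095 in WT macrophages, and 5709 ± 2834 in C3-/- monocytes and 7693 ± 2916 in WT monocytes (SD, n = 4 each). Between genotypes, 0 of 10 tested were called in macrophages and 0 of 10 in monocytes. The part of these cells in the Cxcl14 levels was not tested.

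Cxcl16, the membrane-bound ligand of Cxcr6, had the most normalized reads of the members in macrophages and was the most even one there. It had 24923, 25701, 27099 and 24047 normalized reads in macrophages of C3-/- mice 6, 7, 8 and 9 and 24378, 25453, 24791 and 22528 in those of WT mice 1, 2, 3 and 4. Monocytes had 14551, 11228, 15247 and 10269 in C3-/- mice and 10189, 9735, 11862 and 9629 in WT mice. Since the length used for Cxcl2 covers the whole gene, its order against Cxcl16 per length is open. Per kb, Cxcl16 ranked 82nd of 20407 genes in C3-/- macrophages and 92nd in WT macrophages. Macrophages were higher by 0.72 ± 0.09 log2 units in C3-/- mice (SE, limma adjusted p = 1.28e-05) and by 0.88 ± 0.05 in WT mice (adjusted p = 1.03e-07), with no overlap in either. In monocytes, C3-/- minus WT was 0.20 ± 0.09 log2 units (unadjusted p = 0.0445), which did not hold after adjustment over all genes (limma adjusted p = 0.271), and C3-/- was higher in 14 of 16 pairs of libraries. In the authors' deposited table the log2 fold change of this comparison, which is not drawn together in that way, was 0.31 ± 0.11 (SE). Its adjusted p there was 0.0637. In macrophages the limma difference, C3-/- minus WT, was 0.05 ± 0.04 (adjusted p = 0.6).

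The Cxcl16 values carry an uncertainty of their own. Exons of Cxcl16 overlap those of Zmynd15 on the opposite strand over 552 bases, and the libraries do not mark strand. Zmynd15 averaged 12109 normalized reads in C3-/- macrophages, 9497 in WT macrophages, 1295 in C3-/- monocytes and 1110 in WT monocytes. How reads of the shared stretch were assigned was not stated in the sources.

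Cxcl12, the homeostatic ligand of Cxcr4, had few reads in both cell types and was too low to be tested with the others. Macrophages of C3-/- mice 6, 7, 8 and 9 had 5, 5, 4 and 1 reads, and those of WT mice 1, 2, 3 and 4 had 0 each. Monocytes had 1, 0, 2 and 5 reads in C3-/- mice and 1, 2, 0 and 0 in WT mice. The macrophages of the genotypes did not overlap. With the 0 reads of the WT group set to a floor of 3 reads over the group, the ratio of C3-/- to WT macrophages was 4.805. That ratio depends on the floor and leaves out the sampling error of so few reads. An exact permutation test (two-sided) gave p = 0.0286, the smallest possible, and 0.0858 after adjustment over 12 such tests. Fitted without a filter on low values, limma gave an adjusted p of 0.0843, and the authors' deposited table had a p of 0.00503 with no adjusted value. The C3-/- macrophages held 15 such reads in all, in libraries of 21948815 to 28107154 reads. The summed fibroblast and sarcoma markers ran from 328 to 1550 normalized reads in C3-/- macrophages and from 1382 to 3767 in WT macrophages. The summed level of 8 endothelial markers, of which 6 could be measured, ran from 861 to 1018 in C3-/- macrophages and from 302 to 479 in WT macrophages, without overlap. Kdr, a receptor of vascular endothelial growth factor, made up most of that sum, with means of 794 and 272, and was the 1 of 4 tested that was called (limma adjusted p = 0.000444). Stromal and endothelial cells are known sources of Cxcl12, and the part of either in its reads was not tested.

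Single mice varied widely in the neutrophil-attracting ligands. Among genes within 0.5 log2 units of the same mean level in the same group, Cxcl3 had a larger SD of log2 values than 98.2% in C3-/- macrophages, 97.0% in WT macrophages, 99.9% in C3-/- monocytes and 99.9% in WT monocytes. For Cxcl2 these shares were 98.1%, 95.8%, 98.1% and 96.5%, and for Cxcl1 98.8%, 98.1%, 95.1% and 95.2%. For Ppbp they were 97.7%, 94.3%, 99.5% and 96.4%. Pf4 was as variable in C3-/- and WT macrophages, at 98.2% and 97.8%, and in C3-/- monocytes, at 99.6%, but in WT monocytes its share was 31.8%. Cxcl16 had shares of 20.8% in C3-/- macrophages, 47.5% in WT macrophages, 87.4% in C3-/- monocytes and 59.5% in WT monocytes, and Cxcl14 ranged from 67.4% in WT monocytes to 94.5% in C3-/- monocytes. The comparisons between genotypes therefore had wide intervals for the neutrophil-attracting ligands and narrow ones for Cxcl14 and Cxcl16 in macrophages.

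Several of the ligands varied together among libraries. Over the 16 libraries, which come from 8 mice, deviations of Cxcl2 and Cxcl3 from their group means had a Pearson r of 0.81 and a Spearman rho of 0.84, and r was 0.78 without the 2 libraries farthest out in Cxcl2. For Cxcl1 and Cxcl2, r was 0.70 (rho 0.66), 0.78 without the 2 libraries farthest out in Cxcl1 and 0.61 without the 2 farthest out in Cxcl2. On the log2 values themselves, which include the differences between groups, Cxcl1 had r = -0.17 with Cxcl2 and -0.58 with Cxcl3. Ppbp and Pf4, neighbours on chromosome 5, had r = 0.84 (rho 0.75), and 0.62 without the 2 libraries farthest out in Pf4. Cxcl14 and Cxcl16 had r between -0.46 and 0.33 with every other member. These values describe the libraries and share their depth scaling.

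**Figure D5:**
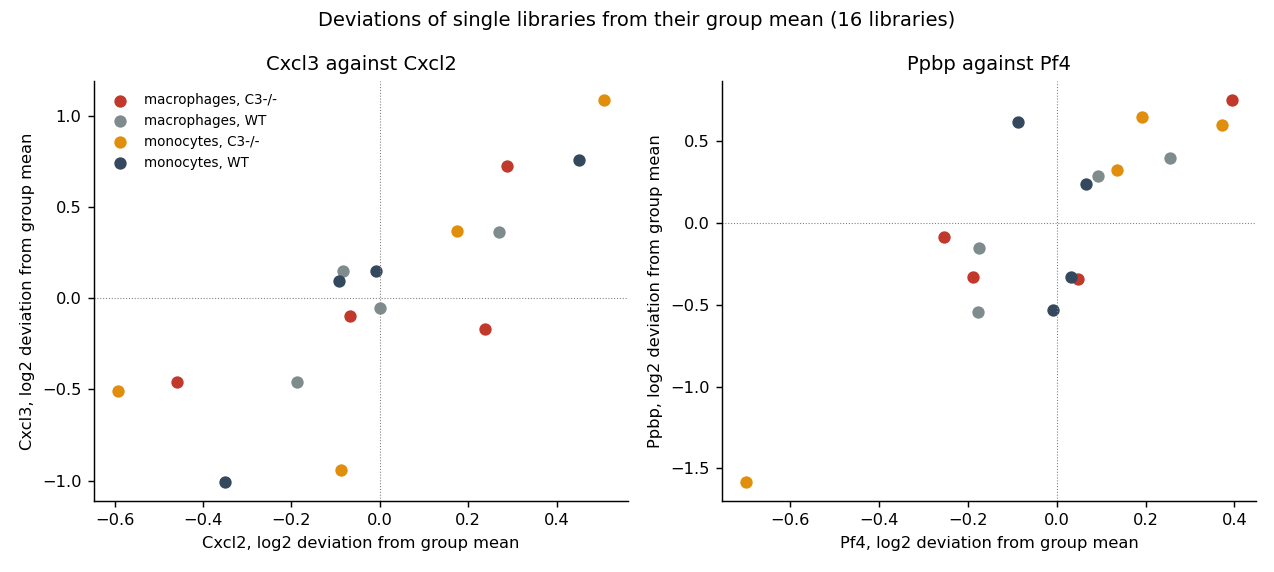
Deviations of single libraries from their group mean on the log2 scale, for Cxcl3 against Cxcl2 (left) and Ppbp against Pf4 (right), with colours for the 4 groups. Libraries high in Cxcl2 tend to be high in Cxcl3 (r = 0.81, 16 libraries); in the right panel 1 library, the monocytes of C3-/- mouse 6, lies far to the lower left.

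By the rule that takes the 3 genes of highest correlation among 13134, the closest to Cxcl2 in these deviations were Ier3 (r = 0.95), an immediate early survival gene, Nfkbiz (0.94), an inducible nuclear NF-kB cofactor, and Osm (0.93), the cytokine oncostatin M. Closest to Cxcl3 were Ptgs2 (0.93), the inducible cyclooxygenase, Ccnl1 (0.91) and Thbs1 (0.91), the matrix protein thrombospondin. For Cxcl1 they were Nus1, Slc39a4 and the formyl peptide receptor Fpr1 (0.86 to 0.87). For Ppbp they included Hmox1 (0.91), heme oxygenase, and for Cxcl16 Dusp6 (0.90), a phosphatase of ERK kinases. On the log2 values themselves, where the cell type sets most of the variation, Cxcl3 was nearest to Thbd, Map2k4 and Inhba (0.98 each) and Cxcl14 to Lars, Ifi27 and Eogt (0.99 each).

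Among 10 inflammatory cytokines and enzymes known to be induced alongside Cxcl1 and Cxcl2, 8 of 9 tested were lower in macrophages than in monocytes in WT mice, with a median of -0.94 log2 units, and 5 of 9 in C3-/- mice, with a median of -0.69. Over all genes the median was -0.01 and 0.00. In C3-/- mice, Il6, Il1b, Osm and Ccl2 had the smallest adjusted p, with log2 differences from -1.75 to -0.90. None of 9 differed between genotypes in macrophages or monocytes. The summed level of this list deviated from its group means along with Cxcl2 (r = 0.92 over 16 libraries, 0.91 without the 2 farthest in Cxcl2). Of the NF-kB factors and inhibitors, 0 of 11 were higher and 9 lower in WT macrophages than in WT monocytes, and 2 were higher and 6 lower in C3-/- macrophages than in C3-/- monocytes. Rel, the c-Rel subunit, was the 1 of 11 that was higher in C3-/- than in WT macrophages, by 0.44 ± 0.05 log2 units (SE, limma adjusted p = 0.000374). In monocytes, 0 of 11 differed between genotypes. The sum of this list had r = 0.89 with Cxcl2. Nfkbiz, Nfkbia and Tnfaip3 weigh most in it, with means of 12187, 11618 and 7940 of 52286 normalized reads in C3-/- macrophages. Such values were not particular to these lists. The sum of the proteases described below had r = 0.90 with Cxcl2, that of the mRNA decay factors 0.74 and that of the neutrophil markers 0.695.

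Immediate early genes that tissue dissociation is known to induce were lower in macrophages too, 15 of 21 in WT mice and 14 of 21 in C3-/- mice, so the cell-type direction of Cxcl2 and Cxcl3 was shared with them. In macrophages 0 of 21 were higher and 1 lower in C3-/- than in WT, and in monocytes 1 was higher and 3 lower. In deviations of single libraries, their sum had r = 0.17 with Cxcl2 and r = 0.13 with Cxcl3, while Ier3, which is on this list, had r = 0.95 with Cxcl2. Abundant genes weigh most in the sum, such as Fos, Dusp1 and Hspa1b, with 64045, 50071 and 29489 normalized reads in C3-/- macrophages, where Ier3 had 3405. Their SD there was 11306 for Fos, 9963 for Dusp1 and 21574 for Hspa1b. The part of the digestion step in the chemokine levels was not tested. Of 6 factors that control the decay of chemokine messages, 0 were higher and 3 lower in macrophages than in monocytes of WT mice. In C3-/- mice 3 were lower in macrophages and 1, Zc3h12a, was higher, by 0.50 ± 0.15 log2 units (SE, limma adjusted p = 0.0141). Zfp36, which encodes tristetraprolin, averaged 27659 normalized reads in C3-/- macrophages and 50054 in C3-/- monocytes, and 28833 in WT macrophages and 58423 in WT monocytes. It was lower in macrophages by 0.60 ± 0.17 log2 units in C3-/- mice (SE, limma adjusted p = 0.0117) and by 0.73 ± 0.06 in WT mice (adjusted p = 9.4e-07). In the genotype comparisons 0 of 6 decay factors differed in macrophages, and 1, Zfp36l1, was lower in C3-/- than in WT monocytes, by 0.52 ± 0.10 (adjusted p = 0.0126).

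Receptors of these ligands were also measured. Cxcr2, the receptor of the neutrophil-attracting ligands, averaged 0.230 normalized reads in C3-/- macrophages and 0.281 in WT macrophages, and 31.3 in C3-/- monocytes and 118 in WT monocytes. It was called lower in macrophages in C3-/- mice (limma adjusted p = 3.89e-05) and in WT mice (adjusted p = 1.58e-06). Between genotypes it differed by -1.40 ± 0.35 in monocytes, which was not called (adjusted p = 0.0646). Cxcr4, the receptor of Cxcl12, averaged 820 normalized reads in C3-/- macrophages, 600 in WT macrophages, 1531 in C3-/- monocytes and 1137 in WT monocytes, and was not called between genotypes in macrophages (adjusted p = 0.31) or monocytes (adjusted p = 0.0625). Ackr3, a scavenging receptor of Cxcl12, was lower in C3-/- than in WT monocytes by 1.09 ± 0.24 (adjusted p = 0.0435), with means of 245 and 602. Of 6 receptors tested there, Ackr3 was the 1 called. Of 4 tested in macrophages, the 1 called was Cxcr3, a receptor of interferon-induced ligands, which was higher in C3-/- by 0.40 ± 0.08 (adjusted p = 0.0104), with means of 398 and 272.

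Cxcr2 is also a neutrophil marker, and most of the neutrophil markers tested were lower in macrophages. Of 8 tested, 7, with Cxcr2 among them, were lower in macrophages than in monocytes in each genotype. The summed level of the list was 1999 ± 366 normalized reads in C3-/- macrophages and 2910 ± 574 in WT macrophages, and 10687 ± 3416 in C3-/- monocytes and 11414 ± 1658 in WT monocytes (SD, n = 4 each). Lcn2 was at 0 in all macrophage libraries. Csf3r, which monocytes also express, gave 1688 and 4597 of these reads in C3-/- macrophages and C3-/- monocytes. Between genotypes 0 of 7 differed in macrophages and 1 of 9, Retnlg, was higher in C3-/- monocytes. Csf3r and Mmp8 were the largest parts of both monocyte sums, which hid unlike means of other markers. In C3-/- and WT monocytes, Camp had means of 139 and 1.46, Ltf 377 and 11.7, and Ngp 505 and 2.06. Their SDs in C3-/- monocytes, 173, 487 and 591, exceeded the means. The other way, S100a8 had means of 417 and 1782 and Lcn2 308 and 750. None of these was called. The monocytes of mouse 7, highest of the C3-/- group for Cxcl1, Cxcl2, Cxcl3 and Ppbp, also had the highest neutrophil sum of that group, 15556. The sum deviated along with Cxcl3 over the libraries (r = 0.77). The gate had removed Ly6G+ cells, and the part of neutrophil RNA in these levels was not tested.

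Of 10 proteases known to cut CXC chemokines, Adam10, the sheddase of Cxcl16, averaged 12641 normalized reads in C3-/- macrophages and 8245 in C3-/- monocytes and was higher in the macrophages by 0.45 ± 0.06 log2 units (SE, limma adjusted p = 5.95e-05). In WT mice Adam10 had 11466 in macrophages and 9999 in monocytes, and the difference of 0.15 ± 0.06 was not called (adjusted p = 0.0532). The difference between the genotypes in this gap was not called either (adjusted p = 0.153). Dpp4, which trims Cxcl12, was lower in macrophages by 1.52 ± 0.11 in C3-/- mice (adjusted p = 2.01e-07) and by 2.09 ± 0.20 in WT mice (adjusted p = 8.16e-06). Mmp8, a neutrophil collagenase and also on the neutrophil list, was lower by 4.33 ± 0.12 in C3-/- macrophages than in C3-/- monocytes (adjusted p = 5.43e-11). Between genotypes 1 of 8 proteases tested in macrophages differed, Mmp2, which was lower in C3-/- by 0.94 ± 0.12 (adjusted p = 0.00071), and 0 of 9 in monocytes.

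The other CXC ligands tested, all but Cxcl13 known as targets of interferon, included genes that were called between the genotypes. Cxcl9 and Cxcl10 were not called in either cell type. Cxcl13, the B cell attractant, had means of 1694 normalized reads in C3-/- macrophages and 6.78 in WT macrophages, and was higher by 5.90 ± 0.22 log2 units in C3-/- (SE, limma adjusted p = 1.42e-07). Cxcl11, a ligand of Cxcr3, was higher in C3-/- mice by 1.67 ± 0.12 in macrophages (adjusted p = 1.17e-05) and by 2.13 ± 0.15 in monocytes (adjusted p = 4.26e-05). Thus 2 of 4 tested were called in macrophages and 1 of 4 in monocytes, each of them higher in C3-/-. The difference between these ligands and the 7 members was not tested.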

How the data were processed

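RNA of 16 sorted-cell samples, 5 ng each, was made into SMART-Seq v4 libraries, which keep no strand, per the labels' protocols. The tools named in the submitters' processing notes are STAR 2.7.2b, DESeq2 and bcl2fastq 2.19.0.316, with the build GRCm38, without roles or an annotation. The authors deposited log2 values of 30819 genes without naming the transform, and per cell type a table of WT against C3-/- with, per the file headers, the authors' base mean (a signal, mean reads over size factors), log2 fold changes with standard errors (turned here to C3-/- over WT), a Wald statistic (a score) and p-values with adjusted p-values. No column belonged to other samples (0).

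The deposited log2 values behave as a regularized logarithm, which pulls the values of a gene together, at high levels too. Differences on this scale are therefore often smaller than log2 ratios of normalized reads. Reads were recovered by inverting it with the base mean. At least 98.65% of values per library, for genes with a base mean under 100, came within 0.05 of a whole read. Over all 20443 genes examined it was 73.46%, with 62.58% in the 5174 genes of the next range of base mean, which holds Cxcl1 and Ppbp, and 21.35% in the 4319 above that, which hold the other members except Cxcl12. Values of the members over 10 reads were within 0.103% of a whole number. The members' normalized reads are those reads over size factors. The inversion and the fits were tested on simulated data. Symbols came from the deposited tables, and for 11647 other genes from the reference annotation (GENCODE M21). Differences were tested on the deposited log2 values with limma 3.58.1 (trend, robust; R 4.3.3) over the libraries of each comparison, with a filter of at least 10 on the linear scale in at least 4 libraries, and Benjamini-Hochberg adjustment over all genes tested, called under 0.05. Single values were tested by exact permutation of libraries, without the pairing by mouse. Named genes were all 8 members, up to 4 genes per list by adjusted p, the 3 genes most like each member, and C3, with further genes of the lists named for their role. Members and lists were chosen with earlier results of these data known. No libraries were copies (chi-square per gene of at least 9.41 within groups). Mouse numbers pair both cell types of an animal. Deviations from group means correlated from 0.03 to 0.42 in the same mouse (8 pairs, median 0.10) and from -0.32 to 0.19 between mice. P-values of genotype comparisons measure the spread between separate mice. Alternatives were the filter, centring, plain limma, a joint fit, the mouse block, voom on recovered reads, leaving out each library, and the authors' deposited table. numpy 2.4.6, pandas 2.3.3, scipy 1.17.1 and matplotlib 3.10.9 were used.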

Additional observations from a re-analysis of the deposited data

Results flagged for a closer look

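In groups of 4 libraries, chance alone sets 1 library far from the others in about 1 group of 20, and 28 combinations of member and group were examined. Ppbp in the monocytes of C3-/- mouse 6 stood apart, at 41.3 normalized reads, where the other C3-/- monocyte libraries had 297 to 401, with a gap of 0.855 of the range on the log2 scale. The same library was lowest of its group for Pf4, at 536, and for Cxcl3, at 1289. Cxcl14 in the macrophages of WT mouse 4 also stood apart, at 4856 normalized reads against 3947 to 4042 in the other WT macrophage libraries, with a gap of 0.885 of the range.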

How the results depend on the processing

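Of 539 recomputed member values, 510 kept their direction and side of the threshold, 10 gained a call, 19 turned direction and 0 lost a call. In WT mice all 7 members were called under every alternative. The 19 turned values all belonged to differences that were not called: Cxcl1 in macrophages (C3-/- minus WT), at 0.038 in the authors' deposited table and -0.195 to 0.190 over the fits without 1 library, Ppbp in monocytes, at 0.074 in that table and -0.336 to 0.408 over such fits, Cxcl3 in macrophages, at -0.161 to 0.232, and, in the difference of genotype effects, Cxcl14, at -0.018 with centred libraries and -0.108 to 0.068 without 1 library, and Ppbp, at -0.071 to 0.673. The cause was not tested.

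With the replicate block (mouse), members called were 6 of 7 in C3-/- mice, against 4, while genes called were 7773, against 7732. Members called were 1 in the difference of genotype effects, against 0, where genes called were 251, against 81. The block changed no other member's call. Between genotypes no block could be fitted, since they share no mouse. Called genes for C3-/- against WT in monocytes were 981 in the joint fit and 1329 in the authors' deposited table, against 427. Without 1 library, called genes ran from 458 to 656 in macrophages, from 237 to 459 in monocytes and from 48 to 125 in the difference of effects, and called members from 0 to 1 in monocytes, where Pf4 was gained without mouse 6. With 4 mice a group, a smaller difference in Cxcl3 or Ppbp than their intervals span was not detectable.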
